A study of Mus musculus with 15 samples.

Results

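Hyaluronan synthesis, turnover and binding was described through 8 genes, Has1, Has2, Has3, Hyal1, Hyal2, Cd44, Vcan and Tnfaip6, out of 17097 genes measured on the arrays. The members were chosen by symbol. Of a gene's probe sets that name it alone, the one with the highest mean over the 15 arrays stood for it. All 8 genes were measured, and 6 of them were bright enough to be tested among 13523 genes. Has2 and Tnfaip6 were dim and were not tested.

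PDGFRa-positive fibroblasts were sorted by flow cytometry out of kidneys from adult C57BL/6 mice, and their RNA was measured on arrays. PDGFRa, a receptor for platelet-derived growth factor, marks interstitial fibroblasts. There were 5 groups of 3 arrays: uninjured kidney (arrays 13 to 15), kidney at day 3 (arrays 1 to 3), day 7 (arrays 4 to 6) and day 14 (arrays 7 to 9) of acute injury induced by folic acid, and unilateral ureteral obstruction (UUO) of 14 days (arrays 10 to 12). Folic acid injures the tubule epithelium, and tying off a ureter produces progressive fibrosis. No genetic alteration is given for any group, and uninjured kidney was the only control, with no sham operation or vehicle group among the labels used here. Nothing in the labels says whether the 3 arrays of a group come from separate animals, so p-values measure no more than the spread among these samples, possibly a technical one.

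Hyaluronan is a long, unsulfated sugar polymer of the extracellular matrix. Hyaluronan synthases in the plasma membrane build it from activated sugars, hyaluronidases cut it, and binding proteins such as versican organise it into a hydrated matrix that cells hold through receptors such as CD44. In healthy kidney it is concentrated in the interstitium of the medulla, and it accumulates in the cortex after injury.

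The values are log2 intensities, and a change is a difference of group means on that scale. Levels are given as mean ± SD with n = 3 arrays. The adjusted p-values come from limma's moderated test, fitted to all 15 arrays and corrected by Benjamini-Hochberg over the 13523 genes, and an adjusted p under 0.05 counted as a call. The number of arrays limits the precision. Intensities of different probe sets cannot be compared, so each gene is set only against itself. The 40th percentile of an array, above which a gene had to lie on at least 3 arrays to be tested, ran from 4.54 to 4.69.

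Some arrays stood apart from their groups in proximal tubule markers. The mean of 11 proximal tubule markers was 8.28 on day 7 array 4, 9.10 on day 14 array 7 and 9.18 on day 14 array 8, against 5.31 to 6.96 on the other folic acid arrays of those days. It was 8.14 to 9.65 in uninjured kidney, 6.17 to 6.37 at folic acid day 3 and 5.15 to 5.62 in UUO. Other lists did not set the same arrays apart. The mean of 8 distal nephron markers was 7.93, 7.36 and 6.24 on arrays 4 to 6 and 8.44, 8.95 and 8.33 on arrays 7 to 9. That of 8 injured epithelium markers was 7.06, 7.11 and 5.90 on arrays 4 to 6 and 7.56, 6.53 and 7.59 on arrays 7 to 9. The mean of 10 fibroblast markers was 5.59 to 6.29 in uninjured kidney, and 7.90 to 9.93 on the injury arrays. The fibroblast gene Cdh11 averaged 4.05 in uninjured kidney and 9.60 to 10.98 in the injury groups, and Col3a1 averaged 5.57 against 11.29 to 12.23. Pdgfra itself, the sorted marker, was 6.01 in uninjured kidney and between 5.28 and 6.69 in the injury groups, and Pdgfrb was 9.53 against 9.32 to 10.32. The fibroblast markers thus differed in whether they set the uninjured arrays apart. In such bulk samples fewer cells of a type and less RNA per cell cannot be told apart.

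Promoters of 6 of the 8 members were in the RefSeq table of build GRCm38.p6, and Has2 and Has3 were not. The 250 bases before the transcription start are shown for Vcan and Cd44, the members called after injury, and for Tnfaip6. Tnfaip6 passed the 40th percentile on 1 array, described further on, and the array median on none. Capitals mark matches to 6 searched motifs, on either strand. These were an AP-1 site (TGANTCA, present in 6.75% of 32851 promoters), a cyclic AMP response element (TGACGTCA, 1.55%), a TATA box (TATAAA, 12.4%), a CCAAT box (CCAAT, 33.8%), a GC box (GGGCGG, 32.7%) and a TCF/LEF site (CTTTGA, 13.8%). The Vcan window is chr13:89742513-89742762, the Cd44 window chr2:102901666-102901915, both on the minus strand, and the Tnfaip6 window chr2:52037863-52038112 on the plus strand.
Vcan: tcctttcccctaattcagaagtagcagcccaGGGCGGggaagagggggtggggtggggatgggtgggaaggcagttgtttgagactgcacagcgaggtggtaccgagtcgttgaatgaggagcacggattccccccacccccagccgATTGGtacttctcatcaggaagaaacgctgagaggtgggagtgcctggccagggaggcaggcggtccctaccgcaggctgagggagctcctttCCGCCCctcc
Cd44: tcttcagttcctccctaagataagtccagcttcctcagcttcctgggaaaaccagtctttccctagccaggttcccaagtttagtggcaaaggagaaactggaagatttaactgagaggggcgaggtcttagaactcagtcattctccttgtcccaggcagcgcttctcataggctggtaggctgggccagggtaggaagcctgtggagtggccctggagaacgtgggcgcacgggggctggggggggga
Tnfaip6: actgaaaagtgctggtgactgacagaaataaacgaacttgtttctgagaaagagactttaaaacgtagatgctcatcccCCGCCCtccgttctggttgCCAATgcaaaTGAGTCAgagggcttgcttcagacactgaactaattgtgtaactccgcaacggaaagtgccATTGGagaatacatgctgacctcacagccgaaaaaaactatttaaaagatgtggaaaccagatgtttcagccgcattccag
The Vcan window held GC boxes that begin 219 and 10 bases before the start and a CCAAT box on the opposite strand 103 bases before it. The Cd44 window held no match to the 6 motifs. Tnfaip6 had an AP-1 match, TGAGTCA, 142 bases before the start, between CCAAT boxes at 152 and 81 bases and downstream of a GC box at 171 bases. Among the other members, Has1 held the cyclic AMP response element TGACGTCA 83 bases before its start, with a CCAAT box at 203 bases. Hyal2 held 1 GC box at 47 bases. Hyal1 held overlapping GC boxes at 77 and 72 bases and a CCAAT box at 49 bases. The Hyal1 window, chr9:107576700-107576949, and the Hyal2 window, chr9:107568913-107569162, lie close together on chromosome 9 on the same strand. These matches are descriptions of letters in a window and were not related to the expression values.

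Across the 5 groups, Vcan was the 1 member of 6 tested that passed the F test for any difference (adjusted p = 0.00233 by limma). The same test called 15.3% of all genes. Cd44 missed the threshold at an adjusted p of 0.0585, and the other tested members lay between 0.364 for Hyal2 and 0.782 for Has3. In the pairwise tests the called members were Vcan and Cd44, always higher in the injury group, and no member was called lower.

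**Figure D1:**
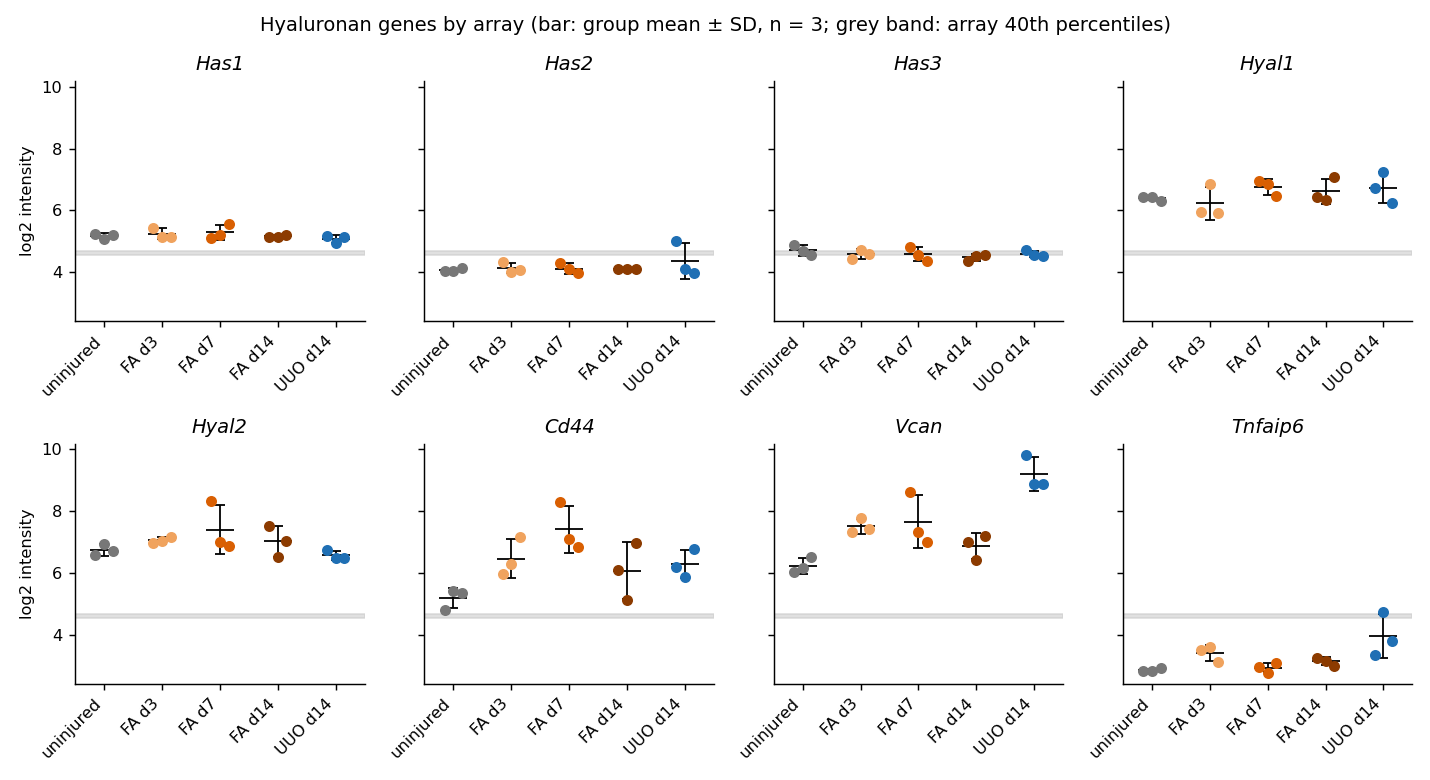
Log2 intensity of each of the 8 hyaluronan genes, with 1 point per array, horizontal bars for group means ± SD (n = 3) and a grey band for the 40th percentiles of the arrays (4.54 to 4.69). Vcan is highest in UUO (8.88 to 9.83), Cd44 is highest at folic acid day 7 (6.85 to 8.28), and Has2 and Tnfaip6 lie below the band on all but 1 array each.

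Vcan encodes versican, a large chondroitin sulfate proteoglycan whose head domain binds hyaluronan and forms the scaffold of provisional matrix. Its levels were 6.03, 6.16 and 6.52 in uninjured kidney and 7.32, 7.79 and 7.44 at folic acid day 3. They were 8.62, 7.34 and 7.00 at day 7 and 7.00, 6.42 and 7.20 at day 14. In UUO they were 9.83, 8.88 and 8.88. In the probe set that stands for Vcan, the UUO arrays were the highest of all 15. Every day 3 and day 7 array lay above every uninjured array, and day 14 array 8 fell within the uninjured range.

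The group means were 9.20 ± 0.55 in UUO, 6.24 ± 0.25 in uninjured kidney, and 7.52 ± 0.24, 7.66 ± 0.85 and 6.87 ± 0.41 at folic acid days 3, 7 and 14. Against uninjured kidney, Vcan rose by 2.96 in UUO (SE 0.39, adjusted p = 0.000316), a 7.78-fold difference with a 95% interval of 2.12 to 3.80 on the log2 scale. It was the 1 member of 6 called there, where 16.6% of all genes were called. At folic acid day 3 it rose by 1.28 (SE 0.39, adjusted p = 0.0403, 2.43-fold), again 1 member of 6 beside 17% of all genes. At day 7 it rose by 1.42 (SE 0.39, adjusted p = 0.0337, 2.68-fold), and Vcan and Cd44 were 2 members of 6 called beside 11.7% of all genes.

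At folic acid day 14 the Vcan difference from uninjured kidney was 0.64 with an interval of -0.21 to 1.48 (adjusted p = 0.393). None of the 6 members was called by limma in that comparison, where 5.67% of all genes were called. None of the 6 had an unadjusted p under 0.05. Both models were sampled at day 14, and there Vcan was higher in UUO than after folic acid by 2.32 (SE 0.39, adjusted p = 0.00984, 5.00-fold). That was 1 of 6 members beside 3.03% of all genes. All 3 UUO arrays exceeded all 3 folic acid day 14 arrays.

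The calls for Vcan were not equally firm. The day 3 call was lost without any 1 of the 3 day 3 arrays or the 3 uninjured arrays (adjusted p 0.0649 to 0.119), and the day 7 call was lost without any 1 of arrays 4, 5, 13, 14 and 15 (adjusted p 0.0564 to 0.1), with a difference of 0.94 without array 4, and with only the 6 arrays compared (adjusted p = 0.0961). The UUO difference from uninjured kidney was called with every array left out in turn (2.64 to 3.12), as was the difference between UUO and folic acid day 14 (2.00 to 2.49), which had an adjusted p of 0.0572 with only the 6 arrays compared.

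Ordered by level in the probe set that stands for it, Vcan ran from UUO through folic acid day 7, day 3 and day 14 to uninjured kidney. No neighbouring pair in that order was called. UUO exceeded day 7 by 1.54 (adjusted p = 0.168), day 7 exceeded day 3 by 0.14 (adjusted p = 0.951), and day 14 was below day 3 by a log2 difference of -0.64 (adjusted p = 0.459). The difference between UUO and day 3 was 1.68 (adjusted p = 0.0672), and that between days 14 and 7 was -0.78 (adjusted p = 0.607). No member was called by limma in these comparisons. At an unadjusted p under 0.05 they held 3 members for UUO against day 7 (Vcan, Cd44 and Hyal2), 1 for UUO against day 3 (Vcan), 1 between days 14 and 7 (Cd44) and 0 in the other 2. How many of all genes lay under that unadjusted threshold was not counted, so these members have no share to be set beside. At an adjusted p under 0.05 the tests called 0.274% of all genes for UUO against day 7 and 1.13% for UUO against day 3. Within the folic acid course they called 0.695% between days 7 and 3, 3.05% between days 14 and 3, and 0.0518% between days 14 and 7.

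**Figure D2:**
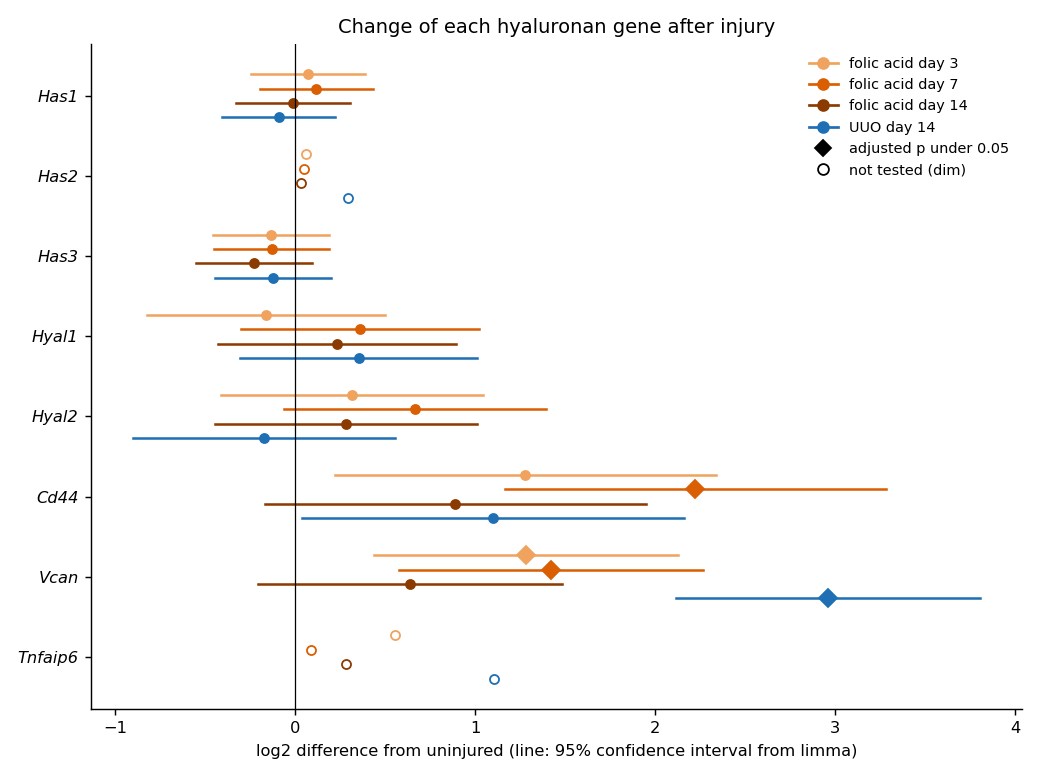
Log2 difference of each hyaluronan gene from uninjured kidney at folic acid days 3, 7 and 14 and at UUO day 14, with lines for the 95% confidence intervals from limma, diamonds for an adjusted p under 0.05 and open circles for genes not tested. Vcan in UUO lies farthest from 0 (2.96), and Cd44 at folic acid day 7 is next among the called values (2.22).

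Vcan was represented by 5 probe sets. The probe set used above, 1427257_PM_at, was the brightest, and 1421694_PM_a_at and 1427256_PM_at were also tested, in a fit over 21225 probe sets. In uninjured kidney both lay below the 40th percentile of the arrays, at 4.19 to 4.24 and 3.72 to 3.99. In UUO 1421694_PM_a_at read 10.24, 7.65 and 7.35, and 1427256_PM_at read 9.79, 7.99 and 8.24. At folic acid day 3 the same pair read 7.37 to 8.38 and 5.86 to 6.48. The uninjured and injury ranges did not overlap for either probe set in any injury group. In 1421694_PM_a_at, however, UUO overlapped day 3 (0.60, adjusted p = 0.832 by limma) and day 7. Day 3 averaged 7.81 there and day 7 6.92. In 1427256_PM_at the UUO arrays were the highest of all, and day 7 (7.13) lay above day 3 (6.25).

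All 3 tested Vcan probe sets were called at day 3, at day 7 and in UUO against uninjured kidney, and none at day 14. The measured differences of the other pair were 4.19 and 4.82 in UUO and 3.59 and 2.39 at day 3. With their uninjured values so dim, these sizes can understate the change and are not ranked against the brightest probe set. The probe set fit called 14.8% of all probe sets in UUO, and 15.3%, 10.1% and 4.63% at folic acid days 3, 7 and 14. For UUO against folic acid day 14 it called 2.59%, among them 1427256_PM_at (3.45, adjusted p = 0.0089) but not 1421694_PM_a_at (2.34, adjusted p = 0.109). The probe sets also ordered the day 7 arrays differently: array 4 was the highest with 8.62 in 1427257_PM_at and the lowest with 6.10 and 6.70 in the other pair. Probe sets 1433043_PM_at and 1433044_PM_at read 3.01 to 3.77 on every array and were not tested.

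**Figure D3:**
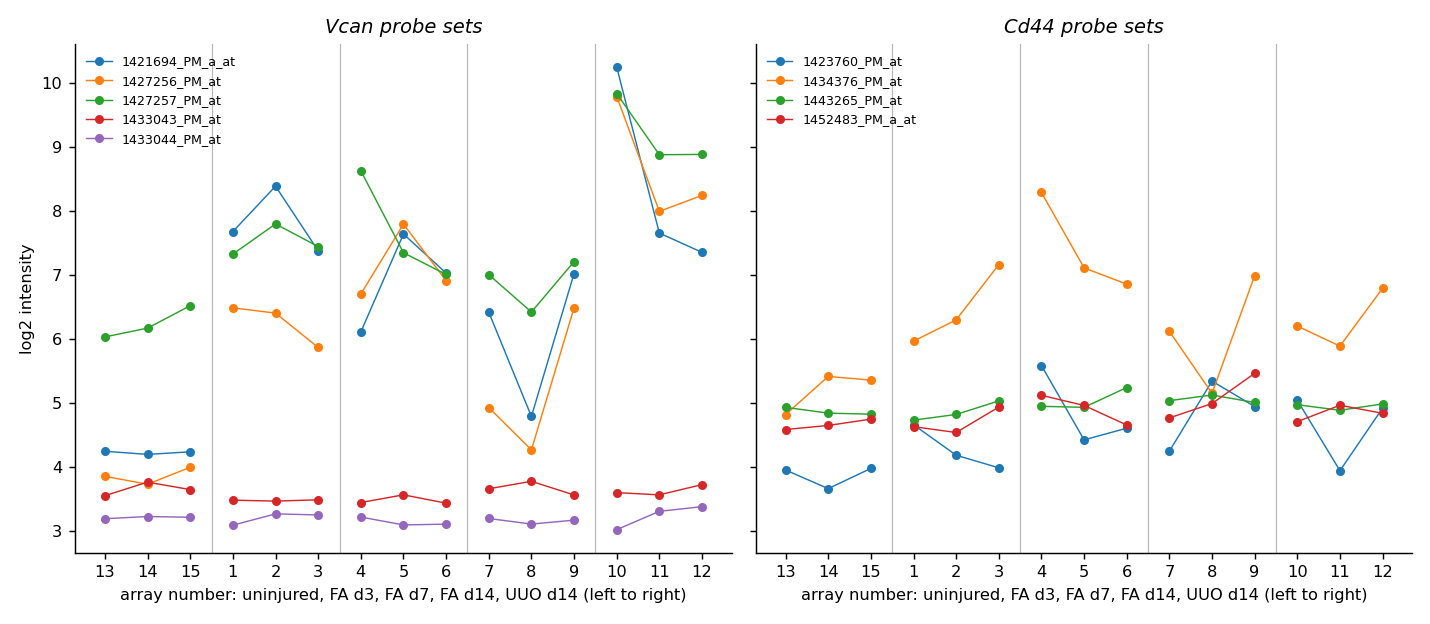
Log2 intensity of the 5 Vcan probe sets (left) and the 4 Cd44 probe sets (right) on each of the 15 arrays, grouped from uninjured kidney to UUO, with lines joining the arrays of a group only to guide the eye. The 3 brighter Vcan probe sets are all higher in UUO than in uninjured kidney, whereas among the 4 Cd44 probe sets the difference at folic acid day 7 is 2.22 in 1434376_PM_at, which was called, and 1.01 in 1423760_PM_at, which was not.

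Cd44 encodes the main cell surface receptor for hyaluronan, found on leukocytes, on activated mesenchymal cells and on injured epithelium. It read 4.81, 5.41 and 5.35 in uninjured kidney and 5.96, 6.29 and 7.16 at folic acid day 3. At day 7 it read 8.28, 7.11 and 6.85, and at day 14 it read 6.11, 5.15 and 6.98. The UUO arrays read 6.20, 5.88 and 6.79. In 1434376_PM_at, the probe set that stands for Cd44, all day 3, day 7 and UUO arrays lay above the uninjured ones. Day 14 array 8 lay among the uninjured arrays.

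Cd44 was higher at day 7 than in uninjured kidney by 2.22 (SE 0.49, adjusted p = 0.0119, 4.67-fold), with means of 7.41 ± 0.76 and 5.19 ± 0.33 and an interval of 1.16 to 3.28. The other differences from uninjured kidney did not pass: 1.28 at day 3 (adjusted p = 0.0936), 1.10 in UUO (adjusted p = 0.153) and 0.89 at day 14 (adjusted p = 0.338). Their intervals reached 2.34, 2.16 and 1.95, so each of them still holds the lower bound found at day 7. The order of levels was day 7, day 3 (6.47 ± 0.62), UUO (6.29 ± 0.46), day 14 (6.08 ± 0.92) and uninjured kidney. No neighbours in it differed by the test. Day 7 exceeded day 3 by 0.94 (adjusted p = 0.518), UUO against day 3 gave -0.18 (adjusted p = 0.946), and UUO against day 14 gave 0.21 (adjusted p = 0.903).

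The Cd44 call at day 7 was kept with each array left out in turn and was 1.79 without array 4 (adjusted p = 0.0353). Of the 4 probe sets 1 was called. Probe set 1423760_PM_at gave 1.01 at day 7, with all 3 arrays above the uninjured ones (adjusted p = 0.110), 1452483_PM_a_at gave 0.25 (adjusted p = 0.450) and 1443265_PM_at gave 0.17 (adjusted p = 0.441). With the mean of the 4 probe sets the difference was 0.91 (adjusted p = 0.0118).

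Markers of other cells moved with these genes, and their part in the results was not tested. All 15 macrophage and dendritic cell markers were measured and 14 tested. Their mean was 4.95 to 5.23 in uninjured kidney and 5.96 to 6.12 in UUO, where 3 of the 14 were called higher. After folic acid it was 5.72 to 5.86 on day 3 (4 called), 7.76 to 8.57 on day 7 (11 called) and 7.13 to 8.69 on day 14 (10 called). Arrays give no true zero. In UUO the group means of the 15 ran from 3.51 for Itgam, which was 3.56 in uninjured kidney, to 9.24 for H2-Aa, which was 6.61 there. Vcan was highest in UUO, where the macrophage mean was below that of days 7 and 14. Cd44 was highest at day 7, where the macrophage group mean was also highest (8.25). Day 7 array 4, the highest for Cd44, had the lowest macrophage mean of its group (7.76). Day 14 array 8 had the lowest macrophage mean of its group (7.13) and, in 1434376_PM_at, its lowest Cd44 (5.15). The other Cd44 probe sets did not place array 8 lowest. It was the highest day 14 array in 1423760_PM_at (5.34) and 1443265_PM_at (5.12), and the middle one in 1452483_PM_a_at (4.99).

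The mean of the 10 fibroblast markers was also higher in every injury group, with 8 of 10 called in UUO and 6 of 10 at each folic acid day. Pdgfra was lower at day 7 (5.50), day 14 (5.28) and in UUO (5.99) than in uninjured kidney (6.01). Pdgfrb was lower at day 14 (9.32 against 9.53). None of these falls was called, and no fibroblast marker was called lower than in uninjured kidney in any injury group. The mean of the 10 was 9.81 to 9.93 in UUO and 7.90 to 9.12 at folic acid day 14. Of the 10, 5 were called higher in UUO than at day 14, in the same comparison in which Vcan was called. In that comparison 8 of 14 macrophage and dendritic markers, 8 of 8 distal nephron markers and 3 of 11 proximal tubule markers were called lower in UUO. Day 14 array 8 had the lowest fibroblast mean of the injury arrays (7.90). In the probe sets that stand for the genes, it had the lowest Vcan (6.42) and Cd44 (5.15) among them. It also had their highest proximal tubule mean (9.18). Day 7 array 4 went the other way, with the lowest fibroblast mean of its group (8.80). That array had the group's highest Cd44 (8.28) and, in 1427257_PM_at, its highest Vcan (8.62). Of the 11 proximal tubule markers tested, 9 were called lower in UUO, 5 at folic acid day 3 and 2 at day 7.

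**Figure D4:**
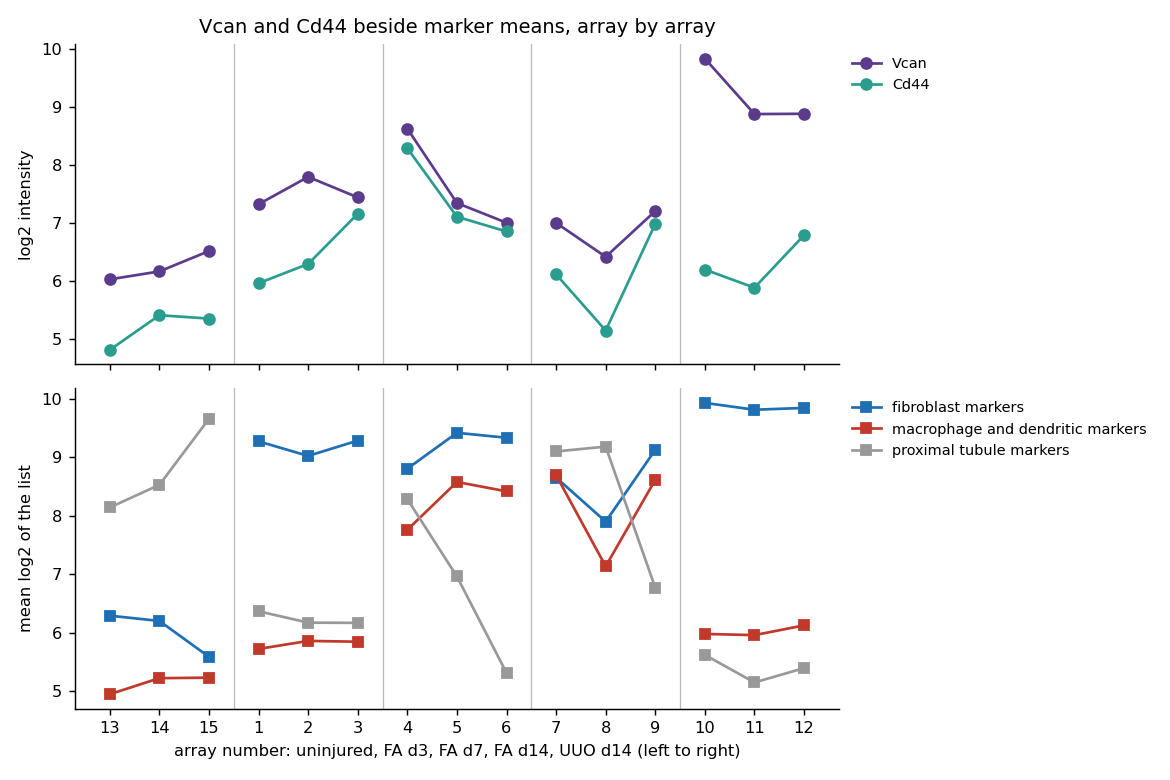
Log2 intensity of Vcan and Cd44 (top) and the mean log2 of 10 fibroblast, 15 macrophage and dendritic and 11 proximal tubule markers (bottom) on each of the 15 arrays, grouped from uninjured kidney to UUO. The fibroblast mean is lowest on the uninjured arrays (5.59 to 6.29). Day 14 array 8 is low for fibroblast markers (7.90) and, in the probe sets drawn, for Vcan (6.42) and Cd44 (5.15). Day 7 array 4 has the lowest fibroblast mean of its group (8.80) and, in the probe sets drawn, its highest Vcan (8.62) and Cd44 (8.28).

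Of the 3 synthases, which extend the hyaluronan chain, Has1 and Has3 were tested and were not called in any comparison. Has1 read between 4.93 and 5.57 on all 15 arrays, and its differences from uninjured kidney ran from -0.09 in UUO (interval -0.41 to 0.22) to 0.12 at day 7 (interval -0.20 to 0.43). Has3 read between 4.36 and 4.90 and lay above the 40th percentile on only 7 arrays. Its differences ran from -0.23 at day 14 (interval -0.55 to 0.09) to -0.12 in UUO (interval -0.44 to 0.20). Every group overlapped the uninjured range for both genes.

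Has2, the synthase best known in mesenchymal cells, was dim on 14 of 15 arrays. It read 3.96 to 4.32 on those and 5.02 on UUO array 10, the one array on which it passed the 40th percentile. Its second probe set read 4.33 on the same array and 3.77 to 4.11 on the rest. The other UUO arrays, at 4.09 and 3.98, lay within the range of the remaining groups. That same array 10 had the highest Vcan value of the series (9.83). Without the filter on dim genes, Has2 differed from uninjured kidney by 0.29 in UUO (adjusted p = 0.428).

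The hyaluronidases, which cut the chain, were bright on every array and were not called in any comparison. Hyal1, the lysosomal enzyme, read 6.42, 6.42 and 6.32 in uninjured kidney and 6.73, 7.26 and 6.23 in UUO. After folic acid it read 5.93, 6.84 and 5.91 on day 3, 6.94, 6.86 and 6.46 on day 7, and 6.42, 6.35 and 7.09 on day 14. The day 7 arrays lay just above the uninjured ones (0.36, interval -0.30 to 1.02, adjusted p = 0.487), and the other groups overlapped them.

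Hyal2, an enzyme anchored at the cell surface, read 6.58, 6.94 and 6.72 in uninjured kidney and 6.75, 6.49 and 6.49 in UUO. After folic acid it read 6.96, 7.05 and 7.18 on day 3, 8.33, 7.01 and 6.89 on day 7, and 7.54, 6.52 and 7.03 on day 14. Array 4 stood highest, as it did within day 7 in the probe sets that stand for Vcan and Cd44. The other tested pair of Vcan probe sets had array 4 lowest within day 7. The day 7 difference from uninjured kidney was 0.66 (interval -0.06 to 1.39, adjusted p = 0.228). Against day 7, UUO gave -0.83, with all its arrays lower (adjusted p = 0.462).

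Tnfaip6 encodes TSG-6, a secreted protein induced by inflammation that transfers heavy chains of inter-alpha-trypsin inhibitor onto hyaluronan. It read 2.83, 2.82 and 2.92 in uninjured kidney and 3.34, 4.74 and 3.80 in UUO. The folic acid arrays read 3.12 to 3.60 at day 3, 2.78 to 3.08 at day 7 and 3.00 to 3.26 at day 14. Only UUO array 11 passed the 40th percentile, so the gene was not tested in the filtered set. All UUO arrays lay above all uninjured arrays, as did all day 3 and day 14 arrays, and UUO overlapped day 3. The UUO difference from uninjured kidney was 1.10 with an adjusted p of 0.0186 by limma when no filter was applied. It was 0.71 without array 11. An intensity near the floor understates a fold.

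The median difference of the 8 members from uninjured kidney was 0.32 in UUO and 0.20, 0.24 and 0.26 at folic acid days 3, 7 and 14. Over the 6 tested members it was 0.13 in UUO and 0.20, 0.51 and 0.26 at those days, so the order of the groups depends on the dim genes. For UUO against folic acid day 14 the medians were 0.16 over 8 and 0.11 over 6. The medians over all genes tested were -0.01 in UUO, 0.02, 0.01 and 0.02 at the folic acid days, and -0.01 for UUO against folic acid day 14. The 4 injury comparisons share the same 3 uninjured arrays, so their values are set side by side and not compared for likeness.

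Of 38 further genes listed for hyaluronan precursors, breakdown, binding and reception, 34 were measured and 28 tested. Against uninjured kidney 3 were called higher and 1 lower at day 3, beside 17% of all genes, and 3 higher at day 7, beside 11.7%. At day 14 there were 2 higher, beside 5.67%, and in UUO 2 higher and 1 lower, beside 16.6%. These counts are near the shares over all genes. These called genes were Ugdh, Itih5, Gusb, Stab1 and Cemip. The median difference of the 28 lay between -0.06 and 0.08 in the 4 comparisons.

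Among the precursor genes, 1 of 7 tested was called at day 3 and in UUO, and none at days 7 and 14, which is also near the shares over all genes (17% at day 3 and 16.6% in UUO). It was Ugdh, the dehydrogenase that makes the UDP-glucuronic acid used for hyaluronan and for other glycosaminoglycans. Ugdh read 6.40, 6.64 and 6.67 in uninjured kidney, 8.42, 8.22 and 7.97 at day 3 and 8.39, 9.00 and 8.71 in UUO, with no overlap. It rose by 1.63 at day 3 (SE 0.32, adjusted p = 0.00469) and by 2.13 in UUO (SE 0.32, adjusted p = 0.000878). At day 7 the difference was 0.63 (adjusted p = 0.240) and at day 14 it was 1.14 (adjusted p = 0.0628). Gfpt1 and Gfpt2, which start the pathway to the amino sugar precursor, differed by 0.61 (adjusted p = 0.0515) and 0.97 (adjusted p = 0.106) in UUO.

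Among 10 tested genes of binding and cross-linking, Itih5 was the 1 called, at day 3, at day 7 and in UUO. Against uninjured kidney these comparisons called 17%, 11.7% and 16.6% of all genes. Itih5 encodes a heavy chain of the inter-alpha-trypsin inhibitor family, whose members can be attached to hyaluronan. Its values were 4.72, 5.23 and 4.48 in uninjured kidney, 7.94, 7.56 and 8.25 at day 3 and 7.77, 6.77 and 7.09 at day 7. They were 4.68, 4.62 and 4.81 at folic acid day 14 and 6.77, 7.10 and 6.68 in UUO. In this probe set, 1441946_PM_at, the day 14 folic acid arrays lay within the uninjured range, while the UUO arrays of the same day did not.

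Itih5 rose by 3.11 at day 3 (adjusted p = 1.68e-05, 8.63-fold), by 2.40 at day 7 (adjusted p = 0.000144) and by 2.05 in UUO (adjusted p = 0.000304), each with SE 0.27. Its day 14 difference was -0.10 (adjusted p = 0.874). Day 14 was lower than day 3 by a log2 difference of -3.21 (adjusted p = 7.49e-05) and lower than day 7 by -2.51 (adjusted p = 0.00735). UUO exceeded folic acid day 14 by 2.15 (adjusted p = 0.00257). A second probe set, 1429159_PM_at, was called at the same 3 points against uninjured kidney (3.56, 2.53 and 2.59), but not for UUO against day 14 (1.63, adjusted p = 0.162). Its day 14 difference from uninjured kidney was 0.96 (adjusted p = 0.396). In it, day 14 was called lower than day 3 (-2.60, adjusted p = 0.0316) but not lower than day 7 (-1.56, adjusted p = 0.428). Acan, the aggregating proteoglycan most like Vcan, read 4.78 to 4.93 in the group means and was not called.

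Among 4 tested breakdown genes, Gusb, the lysosomal beta-glucuronidase, was called higher after folic acid. The comparisons of days 3, 7 and 14 with uninjured kidney called 17%, 11.7% and 5.67% of all genes. Gusb read 4.72 to 4.83 in uninjured kidney, 4.58 to 5.36 in UUO, and 5.54 to 6.19, 5.46 to 6.10 and 5.52 to 6.29 at folic acid days 3, 7 and 14. The rises were 1.15 (adjusted p = 0.00997), 1.07 (adjusted p = 0.021) and 1.17 (adjusted p = 0.0225), and UUO gave 0.24 (adjusted p = 0.589). Its difference between UUO and day 14, -0.92, was not called either.

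Cemip encodes a protein needed for hyaluronan depolymerisation by fibroblasts. It read 6.65, 6.81 and 6.45 in uninjured kidney and 5.92, 5.82 and 5.89 at day 3, a fall called at -0.76 (adjusted p = 0.00973). Both other Cemip probe sets were too dim to test and gave 0.01 and -0.03 at day 3. At days 7 and 14 all arrays of the tested probe set lay below the uninjured ones (-0.52 and -0.54). Neither was called (adjusted p = 0.082 and 0.111 in the probe set fit). In UUO Cemip read 6.45, 5.78 and 5.86, where the groups overlap and the difference was -0.60 (adjusted p = 0.0313). Another Cemip probe set, too dim to test, was higher in UUO by 0.87, and the mean of the 3 probe sets gave 0.09 (adjusted p = 0.708), so the direction in UUO depends on the probe set. Hyal3, the close relative of Hyal1 and Hyal2, was dim and not tested.

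Among 7 receptors beside Cd44, Stab1 was the 1 called. Against uninjured kidney it was called at days 7 and 14, beside 11.7% and 5.67% of all genes. It encodes stabilin-1, a scavenger receptor of macrophages and sinusoidal endothelium. Stab1 read 4.81, 4.95 and 4.71 in uninjured kidney, 6.81, 6.69 and 7.15 at day 7 and 6.67, 5.33 and 6.47 at day 14, with rises of 2.07 (adjusted p = 0.000559) and 1.34 (adjusted p = 0.0155). In UUO it read 5.17, 5.11 and 5.14. It was higher at day 7 than at day 3 by 1.67 (adjusted p = 0.0199), and UUO against day 7 gave -1.75 (adjusted p = 0.0296). The macrophage means given above were also highest at days 7 and 14, and their part in the Stab1 values was not tested. Hmmr, Lyve1, Stab2, Layn, Tlr2 and Tlr4 were not called against uninjured kidney.

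**Figure D5:**
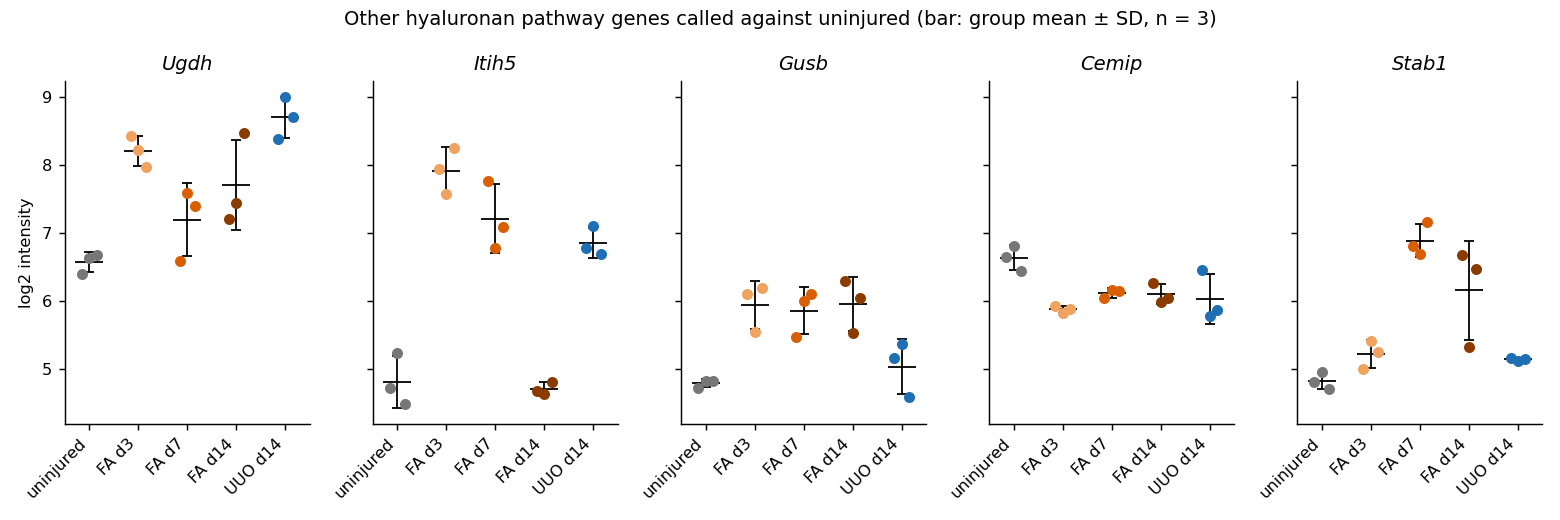
Log2 intensity of the 5 other hyaluronan pathway genes called against uninjured kidney, with 1 point per array and bars for group means ± SD (n = 3). In the probe set drawn, 1441946_PM_at, Itih5 lies in the uninjured range at folic acid day 14 (4.62 to 4.81) and not in UUO (6.68 to 7.10). Stab1 is highest at folic acid day 7 (6.69 to 7.15).

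The genes whose pattern over the 15 arrays was most like that of each tested member were ranked by Pearson's r, as a description without a test, since the arrays share groups and cell makeup. For Vcan they were Col8a2 (0.90), Dact1 (0.89) and Alx1 (0.89). For Cd44 they were Helq (0.84), Hif1an (0.83) and Adamts7 (0.83). Hyal2 had Zfp653 (0.91), Ccdc97 (0.89) and Tbl3 (0.87), and Hyal1 had Dusp6 (0.79), Sema5a (0.77) and Elf4 (0.75). Has3 had Prdm11 (0.88), Ccdc74a (0.84) and Sinhcaf (0.78), and Has1 had Lpl, Ms4a4b and Zbtb7b (all 0.83). No other member was among the 3 nearest genes of any member.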

How the data were processed

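The authors deposited log2 intensities for 45141 probe sets on each of 15 arrays. The submitters' processing notes name RMA, affy and limma. Versions, roles and background handling are not given in the sources used here. Per the labels, RNA was amplified to cDNA and labelled with biotin. The values were used as deposited, and array medians ran from 4.93 to 5.06. No 2 arrays were identical.

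Probe sets were named through the platform annotation: 28898 had 1 gene, 551 had several and 15692 had no entry. Using limma 3.58.1 (R 4.3.3), lmFit and eBayes fitted one mean per group over the 15 arrays, with 10 residual degrees of freedom. Each of 10 pairwise 2-sided tests and an F test was adjusted by Benjamini-Hochberg over 13523 genes. The filter left out 3574 dim genes. A second fit used all probe sets naming 1 gene. The fit was tested on simulated data. The titles number the samples 1 to 15 without sharing numbers between groups, so nothing pairs them. Promoters were searched on both strands. Plots were drawn with matplotlib 3.10.9.

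The members and the lists were chosen with earlier results of these data known. The text names all members, the called genes of the pathway list with the smallest p (up to 5 per comparison), close relatives of a member, the 3 genes most like each tested member, and markers. Alternatives were array weights, quantile normalization, the trend and robust options of eBayes, centring on medians, a fit of only the arrays compared, no filter, a 60th percentile filter, the mean of probe sets, a threshold of 0.01 and each array left out.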

Additional observations from a re-analysis of the deposited data

Results flagged for a closer look

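Changes that differed between injury groups by limma's test of the difference itself concerned 1 member and 2 other pathway genes. Vcan was higher in UUO than at folic acid day 14 by 2.32 on the log2 scale (adjusted p = 0.00984), with all 3 UUO arrays above all day 14 arrays. Itih5 was higher in the same comparison by 2.15 (adjusted p = 0.00257). Within the folic acid course, Itih5 at day 14 differed by -3.21 from day 3 (adjusted p = 7.49e-05) and by -2.51 from day 7 (adjusted p = 0.00735). A second Itih5 probe set was called for day 14 against day 3 (-2.60). It was not called for day 14 against day 7 (-1.56, adjusted p = 0.428) or for UUO against day 14 (1.63, adjusted p = 0.162). Stab1 was higher at day 7 than at day 3 by 1.67 (adjusted p = 0.0199), and its difference between UUO and day 7 was -1.75 (adjusted p = 0.0296).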

How the results depend on the processing

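Of 274 counts of called members under the alternatives, 239 stayed within 1.5 times the reported count. For the F test (1 member), array weights, the 60th percentile filter and leaving out arrays 4, 7 and 8 each gave 2, with Cd44 added, and leaving out single arrays gave 1 to 2. For folic acid day 3 against uninjured kidney (1), quantile normalization and the threshold of 0.01 gave 0, while array weights, only the arrays compared, and leaving out arrays 4, 7 and 8 gave 2, and single arrays left out gave 0 to 1. For day 7 (2), only the arrays compared and leaving out arrays 4, 7 and 8 gave 1, the threshold of 0.01 gave 0, and single arrays gave 1 to 2, Vcan being lost without array 4, 5, 13, 14 or 15. For UUO against uninjured kidney (1), only the arrays compared and leaving out arrays 4, 7 and 8 added Cd44 and no filter added Tnfaip6, giving 2 each. For UUO against folic acid day 14 (1), only the arrays compared gave 0. Leaving out arrays 4, 7 and 8 also gave 0, but there day 14 is array 9 alone, assumed to vary like the other groups, and Vcan differed by 1.99 (adjusted p = 0.0525). UUO against day 3 (0) gave 1 with array weights and without arrays 4, 7 and 8, and 0 to 1 with single arrays left out; UUO against day 7 (0) gave 1 without arrays 4, 7 and 8 and 0 to 1 with single arrays left out. The set without arrays 4, 7 and 8 was chosen after seeing the data. Among 3250 values of single genes, 3144 were kept. These held their call or, where a gene was untested in either fit, moved by less than its SD within groups. Tnfaip6 in UUO without the filter was thus counted as kept, though called there. A further 67 lost their call, 30 gained one, and 8 with an untested fit moved by more. The 1 that reversed was Cemip in UUO against uninjured kidney, at 0.086 with the mean of probe sets. Among those kept or moved, 104 values that were not called took the other sign. Causes other than fewer arrays or the probe sets averaged were not tested. No scaling moved the median of all genes by as much as 0.1 on the log2 scale. No paired analysis was possible because the groups share no sample numbers. Signal near the floor limits Has2, Has3 and Tnfaip6.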
